A study of Rattus norvegicus with 6 samples.

Results

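The genes described here are the potassium channel genes of the rat pituitary, taken as every gene symbol that begins with Kcn in the count files. There were 94 such genes among 33294 symbols, in 19 classes by symbol. Of these, 79 passed the filter on low counts and were tested, among 17292 genes of all kinds. Pituitary glands of male Sprague-Dawley rats aged 11 weeks were compared between 3 offspring of dams that received nicotine tartrate in saline at 6 mg/kg per day and 3 offspring of dams that received saline alone. Nicotine or saline was delivered by a 28-day osmotic mini-pump under the skin of the dam, so exposure was through the mother. Whether the pump stayed in place after birth is not stated. Exposure before birth and during nursing therefore cannot be told apart. Each library came from 1 rat. The sources used here do not say whether the rats of a group came from different litters, so the p-values measure only the spread between these rats.

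Potassium channels let potassium leave the cell and thereby set the resting membrane potential and end each action potential. Pituitary endocrine cells fire action potentials on their own, and the calcium that enters during firing drives hormone release. Dopamine and somatostatin, which inhibit hormone release, open inwardly rectifying potassium channels through G proteins. Large-conductance calcium-activated channels shape the length of the bursts, and ERG channels are known for the response of lactotrophs to thyrotropin-releasing hormone.

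The libraries held between 28318383 and 85977002 counts, and the median total of the nicotine group was 1.70 times that of the controls. Levels are given as CPM, the usual measure of counts relative to library size, with library sizes scaled by TMM, a method that takes its scale from the bulk of the genes. CPM is not divided by gene length, so values of different genes are amounts of reads and not of transcripts. Nicotine replicate 2, the deepest library, stood apart. It had the highest level of the 6 libraries in 26.9% and the lowest in 26.8% of all genes tested. The anterior lobe hormone genes summed to 113538 to 176311 CPM in each library, while 5 testis germ cell markers, examined because the extraction protocol speaks of testis, summed to at most 0.085 CPM. Of the 7 hormone genes, 4 had a higher and 3 a lower fitted level after nicotine, and none was called. Lhb was at 216, 820 and 223 CPM after nicotine and at 154, 75.6 and 125 CPM in controls. It was the only 1 of the 7 whose groups did not overlap (14.3%, against 11.3% of all genes). Nicotine replicate 2 had the highest Gh1, at 115788 CPM, and the lowest Prl and Pomc, at 17547 and 20412 CPM. The part of hormone cells in the channel values was not tested. Markers of other cells in the gland also differed between libraries. All 10 smooth muscle and pericyte markers had a higher fitted level after nicotine, and their sum was 62.2 to 226 CPM against 52.4 to 67.4 CPM in controls. Tagln, the marker with the most reads, held much of the sum, and without it the other 9 summed to 51.6 to 87.8 CPM against 35.01 to 45.8 CPM, with no overlap. Of the 10 markers, 1 was called by DESeq2, which called 0.335% of all genes, and 0 by edgeR. At an unadjusted p under 0.05 edgeR gave 4 of them (40%, against 5.85% of all genes). The 4 melanotroph markers summed to 728 CPM in control replicate 3 and to 192 to 348 CPM in the other 5 libraries. In whole glands, fewer cells of a type and less RNA per cell cannot be told apart.

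The Kcn genes together took 853, 968 and 898 CPM in the nicotine libraries and 841, 857 and 840 CPM in the control libraries. Of the 79 genes tested, 25 had a mean of at least 10 CPM, 39 lay between 1 and 10 CPM and 15 were under 1 CPM. The 10 genes with the most reads held 53.7% to 56.3% of all Kcn reads in every library. Among them were Kcnk2, Kcnip3, Kcnj5, Kcnh2, Kcnj6, Kcnd3, Kcnk3, Kcna5 and Kcnk1, with mean levels from 107 CPM for Kcnk2 to 24.5 CPM for Kcnk1. These genes encode leak channels, a calcium-binding partner, G protein-gated rectifiers, an ERG channel, an A-type channel and a delayed rectifier.

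By class, the voltage-gated genes with the EAG and M-current families, 40 genes in all, held 35.5% to 40.6% of the Kcn reads. The two-pore genes held 18.6% to 24.5% and the inward rectifiers 15.1% to 18.8%. The Kcnip genes, whose calcium-binding proteins attach to A-type channels, held 9.47% to 12.8%. Most of the Kcnip reads were of Kcnip3, whose protein is also known as a calcium-regulated transcriptional repressor.

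**Figure D1:**
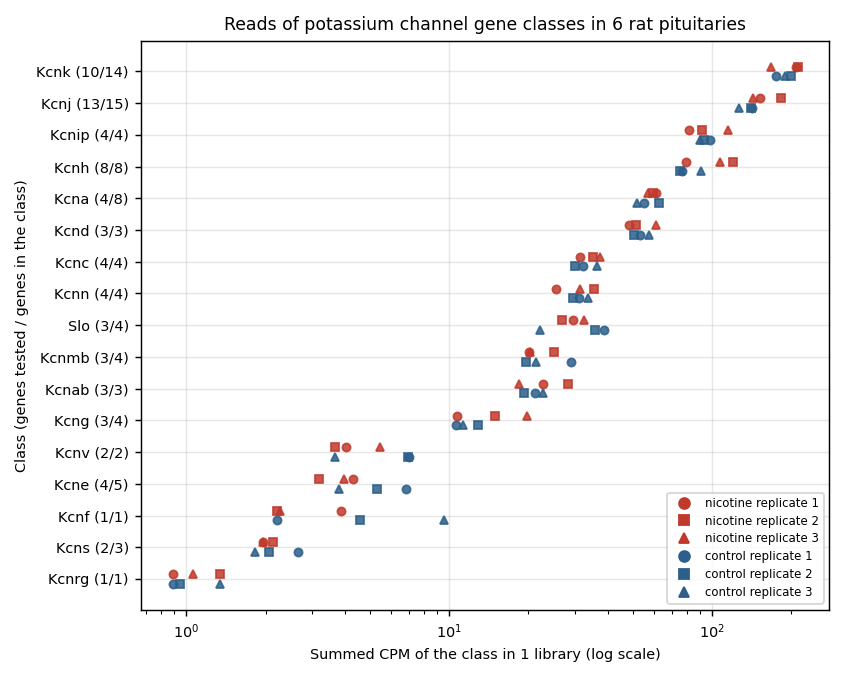
Summed CPM of each class of potassium channel gene (log axis), with 1 point for each library and red for nicotine and blue for control. The 17 classes plotted are labelled with the genes tested and the genes held. The two-pore genes (Kcnk) lie highest, at 167 to 212 CPM, and the nicotine and control points of most classes overlap.

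The filter left out 15 Kcn genes, all of them at trace level. No library had more than 0.340 CPM of any, a value reached by Kcna1, a fast delayed rectifier of axons. Kcnk18 and Kcnu1, the second of which encodes a sperm potassium channel, had 0 of 314872477 counts, which allows up to 0.00953 CPM over all libraries together, for counting error only. The other 13 were Kcna1, Kcna3, Kcna7, Kcna10, Kcne1, Kcng3, Kcnj4, Kcnj12, Kcnk4, Kcnk15, Kcnk16, Kcnmb3 and Kcns1. Kcnj12, an inward rectifier of muscle, had 14, 10 and 4 counts after nicotine against 0, 0 and 1 in controls. These genes did not enter the test.

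The comparison of the groups asked whether exposure through the dam was followed by a different channel repertoire in the adult gland. No Kcn gene passed the test. Of the 79 tested, edgeR's quasi-likelihood test called 0 when both an adjusted p under 0.1 and a change of more than 1.5-fold were required, and it called 0% of all genes, and DESeq2 called 0 Kcn genes against 0.335% of all genes. At an unadjusted p under 0.05, edgeR gave 9 Kcn genes (11.4%) against 5.85% of all genes, and DESeq2 gave 11 (13.9%) against 6.10%. Of the 9, 7 had a higher level after nicotine, where 3.12% of all genes did, and 2 a lower level, against 2.73%. The adjusted p of the Kcn genes lay between 0.807 and 0.999 in edgeR. The 9 genes were Kcnk3, Kcnk10, Kcnma1, Kcnmb1, Kcnh1, Kcnc4 and Kcnj6, with higher levels, and Kcnk9 and Kcnv2, with lower levels. Without nicotine replicate 2 the count was 5 of 79 (6.33%), against 6.36% of all genes. It was 5 without control replicate 1 (6.17%, against 3.67% of all genes), 4 without control replicate 3 (4.94%, against 4.73%) and 14 without nicotine replicate 1 (17.3%, against 8.58%).

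The fitted level was higher after nicotine in 46 Kcn genes and lower in 33, where 51.2% of all genes were higher. The median log2 fold change was 0.056, against 0.0079 over all genes tested. In 7 Kcn genes (8.86%) the 3 nicotine libraries lay wholly above or below the 3 control libraries, against 11.3% of all genes. Of these, 5 lay above, against 6.12% of all genes, Kcnk3, Kcnma1, Kcnmb1 and Kcnc4 among them, and Kcnk9 and Kcnj1 lay below, against 5.14%. An exact two-sided permutation test of each gave p = 0.1, the smallest that 3 against 3 allows. Groups that do not overlap always give this value, so it is no further evidence. Pore-forming genes had a median of 0.059 and auxiliary genes of 0.056, with 37 of 64 and 9 of 15 tested genes higher.

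**Figure D2:**
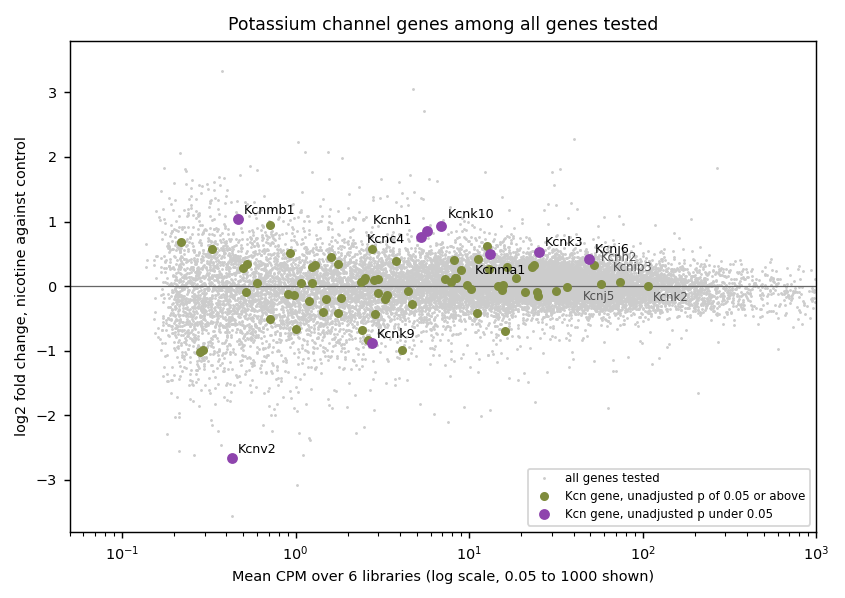
Log2 fold change of nicotine against control over the mean CPM of the 6 libraries (log axis), with grey points for all genes tested, green for Kcn genes and purple for the 9 Kcn genes at an unadjusted p under 0.05. The Kcn genes spread around 0 among the other genes, from -2.66 for Kcnv2 to 1.03 for Kcnmb1, and Kcnk2, Kcnip3 and Kcnj5, among the genes with the most reads, lie close to 0.

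Among the two-pore genes, which carry the leak current at rest, Kcnk2 encodes a TREK channel opened by stretch and by lipids. It stood at 120, 116 and 85.5 CPM in the nicotine libraries and at 100, 114 and 108 CPM in the controls. Nicotine replicate 3 was the lowest library and the groups overlapped. The means were 107 ± 18.8 and 107 ± 6.62 CPM (SD, n = 3 each), and the log2 fold change was -0.0024 with an SE of 0.18. The edgeR adjusted p was 0.998. Kcnk1, a weakly conducting leak channel, lay between 20.9 and 28.2 CPM, and Kcnk12, a member of the THIK group, between 14.6 and 17.0 CPM in the 6 libraries.

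The 2 acid-sensitive TASK genes stood on opposite sides. Kcnk3 was at 28.2, 35.1 and 26.8 CPM after nicotine and at 20.6, 23.7 and 18.0 CPM in controls. All 3 nicotine libraries exceeded the highest control. The means were 30.0 ± 4.40 and 20.8 ± 2.84 CPM, a log2 fold change of 0.53 (SE 0.18), with an edgeR adjusted p of 0.807. Its log2 fold change stayed between 0.40 and 0.64 when any 1 library was left out. Kcnk9, whose protein can pair with that of Kcnk3, was at 1.42, 2.51 and 1.85 CPM after nicotine and at 2.92, 2.80 and 5.02 CPM in controls. All 3 nicotine libraries were under the lowest control, and control replicate 3 stood well above the rest. With an SE of 0.33 the log2 fold change was -0.89, and the edgeR adjusted p was 0.811. Without control replicate 3, which also had the highest melanotroph marker sum, it was -0.56. Nicotine replicates 2 and 3 had melanotroph sums of 348 and 316 CPM, and control replicates 1 and 2 of 288 and 292 CPM. Kcnk9 was lower in those nicotine libraries than in those controls. The part of the melanotroph markers in the Kcnk9 difference was not tested.

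Kcnk10, a TREK gene related to Kcnk2, was at 15.04, 7.65 and 4.48 CPM after nicotine and at 4.02, 6.56 and 3.49 CPM in controls. Nicotine replicate 1 alone stood high, and the other 2 nicotine libraries lay within or near the control range. The log2 fold change was 0.94 (SE 0.40, edgeR adjusted p = 0.839) and was 0.37 without that library. Of the 10 two-pore genes tested, 3 had a higher and 7 a lower fitted level after nicotine, with a median log2 fold change of -0.098. The remaining genes Kcnk5, Kcnk6, Kcnk7 and Kcnk13 lay between 0.891 and 4.70 CPM.

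**Figure D3:**
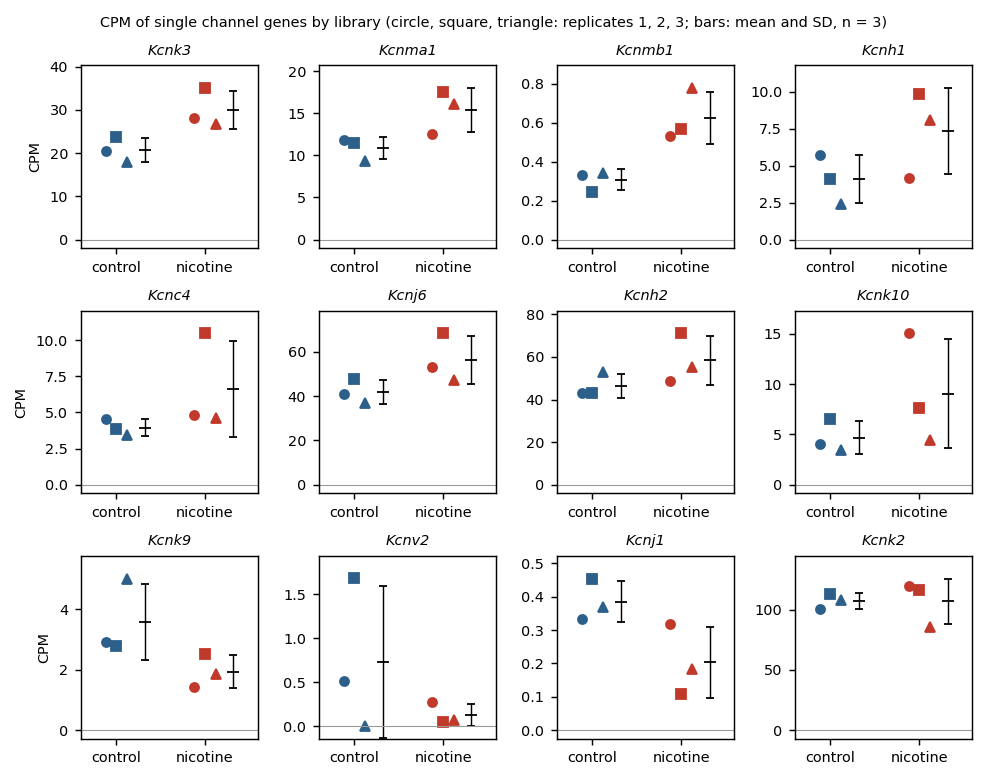
CPM of 12 potassium channel genes in each library, with blue for control and red for nicotine, circles, squares and triangles for replicates 1, 2 and 3, and bars for the mean and SD of 3 libraries. The groups do not overlap for Kcnk3, Kcnma1, Kcnmb1, Kcnc4, Kcnk9 and Kcnj1, whereas single libraries stand out for Kcnk10 (nicotine replicate 1, 15.04 CPM) and Kcnv2 (control replicate 2, 1.68 CPM).

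The inward rectifiers pass potassium more easily into than out of the cell and hold the resting potential. Kcnj3, Kcnj5, Kcnj6 and Kcnj9 encode the GIRK subunits, which G proteins open. Kcnj6 was at 53.3, 68.3 and 47.1 CPM after nicotine and at 41.0, 47.9 and 36.8 CPM in controls. The groups overlapped by a narrow margin, since nicotine replicate 3 lay just under control replicate 2. The means were 56.2 ± 10.9 and 41.9 ± 5.58 CPM, a log2 fold change of 0.43 (SE 0.18) with an edgeR adjusted p of 0.839. It was 0.25 without nicotine replicate 2. Kcnj5 was at 54.4, 64.2 and 56.7 CPM after nicotine and at 61.3, 52.8 and 57.5 CPM in controls, with a log2 fold change of 0.032 (SE 0.15, edgeR adjusted p = 0.977). Its groups overlapped throughout. Kcnj3 was at 15, 23.5 and 15.8 CPM against 18.3, 13.8 and 12.2 CPM, again with overlap. Kcnj9 was low, at 0.382 to 1.16 CPM.

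Genes of the KATP channel, which closes when the cell has ample ATP, were read in 2 pairs of pore and regulatory subunit. Kcnj11, the pore of endocrine cells, was at 16.2, 13.0 and 9.32 CPM after nicotine and at 9.01, 11.5 and 8.24 CPM in controls. The groups overlapped, and the log2 fold change of 0.42 (SE 0.23, edgeR adjusted p = 0.848) was 0.22 without nicotine replicate 1. Abcc8, its usual sulfonylurea receptor, was at 30.0, 49.1 and 36.6 CPM against 35.9, 31.8 and 30.8 CPM. Here the groups overlapped as well. Kcnj8, the pore of vascular smooth muscle and pericytes, was at 3.92, 2.30 and 3.77 CPM after nicotine and at 2.33, 2.53 and 1.80 CPM in controls. Nicotine replicates 1 and 3 were above all controls and nicotine replicate 2 was among them. On the log2 scale the fold change was 0.58 (SE 0.30, edgeR adjusted p = 0.839).

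Abcc9, the regulatory partner of Kcnj8 in vessels, was at 6.09, 3.51 and 6.61 CPM after nicotine and at 1.07, 3.18 and 2.19 CPM in controls. The lowest nicotine library was above the highest control, and the order of the nicotine libraries had replicate 2 lowest, as for Kcnj8. Nicotine against control gave a log2 fold change of 1.31 (SE 0.38), with an adjusted p of 0.807 in edgeR and 0.131 in DESeq2. The smooth muscle and pericyte markers summed to 82.6, 62.2 and 226 CPM in the nicotine libraries and to 67.4, 66.3 and 52.4 CPM in the controls, and without Tagln to 67.5, 51.6 and 87.8 CPM against 35.01, 45.8 and 37.7 CPM. Replicates 1 and 3 of the nicotine group were again the highest, and the part of these cells in the values of Kcnj8 and Abcc9 was not tested.

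Kcnj1, an inward rectifier best known from the kidney, was at 0.318, 0.109 and 0.182 CPM after nicotine and at 0.332, 0.454 and 0.370 CPM in controls. The highest nicotine library was below the lowest control, but only by a small margin for nicotine replicate 1. A log2 fold change of -0.99 (SE 0.53, edgeR adjusted p = 0.839) was fitted. The summed level of all 15 Kcnj genes was 143 to 182 CPM after nicotine and 127 to 141 CPM in controls, with no overlap. Kcnj6 made the largest part of this difference, and of the 13 genes tested 8 were higher and 5 lower. The sums of most other classes overlapped, as did the sum of all Kcn genes, at 853 to 968 CPM against 840 to 857 CPM. The other rectifiers tested, Kcnj2, Kcnj10, Kcnj13, Kcnj14, Kcnj15 and Kcnj16, lay between 0.317 and 3.90 CPM.

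Among the voltage-gated genes, Kcnc genes encode channels that open and close fast and permit rapid firing. Kcnc4 was at 4.84, 10.5 and 4.63 CPM after nicotine and at 4.58, 3.86 and 3.41 CPM in controls. Nicotine replicate 2 was far above the rest, and the other nicotine libraries cleared the highest control by little. Its log2 fold change was 0.76 (SE 0.33, edgeR adjusted p = 0.839) and was 0.26 without nicotine replicate 2. Kcnc2 went the other way, at 10.5, 6.51 and 11.5 CPM after nicotine and 13.7, 11.0 and 13.4 CPM in controls, with a log2 fold change of -0.42 (SE 0.23, edgeR adjusted p = 0.846). Its lowest value was also in nicotine replicate 2, and without that library the log2 fold change was -0.22. Kcnc1 lay between 3.54 and 6.21 CPM, with overlap. Kcnb2, a delayed rectifier, lay between 7.40 and 12.02 CPM, also with overlap.

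The Kcnd genes, of A-type channels, and the Shaker-related Kcna genes had overlapping groups throughout. Kcnd3, whose channel inactivates within milliseconds, lay between 31.3 and 43.6 CPM and Kcnd2 between 13.2 and 16.6 CPM. Kcna5, a delayed rectifier, lay between 19.4 and 30.0 CPM and Kcna2, a channel found on axons, between 14.1 and 28.9 CPM. The median log2 fold change was 0.0012 for the 3 Kcnd genes and 0.18 for the 4 Kcna genes tested. The others of these classes were Kcna4 at 5.73 to 11.2 CPM, Kcna6 at 0.530 to 2.80 CPM, with its highest value in nicotine replicate 2, and Kcnd1 at 1.74 to 3.00 CPM.

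The EAG family, Kcnh, holds the ERG genes Kcnh2, Kcnh6 and Kcnh7. Kcnh2 was at 48.5, 71.1 and 55.5 CPM after nicotine and at 43.1, 42.9 and 53.0 CPM in controls. Nicotine replicate 2 was highest, and control replicate 3 lay within the nicotine range. The means were 58.4 ± 11.5 and 46.4 ± 5.80 CPM, a log2 fold change of 0.33 (SE 0.18, edgeR adjusted p = 0.846), which was 0.16 without nicotine replicate 2. Kcnh6 lay between 5.24 and 9.66 CPM and Kcnh7 between 2.65 and 4.62 CPM, with overlap in both. Kcnh3, Kcnh4 and Kcnh5 lay between 0.303 and 11.8 CPM.

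Kcnh1, the founding EAG gene, was at 4.16, 9.81 and 8.06 CPM after nicotine and at 5.72, 4.12 and 2.43 CPM in controls. Nicotine replicates 2 and 3 were above all controls, and nicotine replicate 1 was among them. This was a log2 fold change of 0.85 (SE 0.36, edgeR adjusted p = 0.839). Kcnh8, of the ELK branch of the family, was at 9.08, 18.2 and 19.2 CPM against 10.6, 12.7 and 6.87 CPM, with a log2 fold change of 0.62 (SE 0.30, edgeR adjusted p = 0.839) that was 0.41 without control replicate 3. It shared with Kcnh1 that replicates 2 and 3 of the nicotine group were highest and control replicate 3 lowest. The 4 pituicyte markers other than Scn7a had the same 2 highest and the same lowest library. They summed to 17.9, 38.004 and 25.2 CPM after nicotine and 17.9, 10.2 and 2.06 CPM in controls. Scn7a itself was at 49.1, 100 and 61.5 CPM after nicotine and 73.1, 49.6 and 49.3 CPM in controls. Its lowest library was nicotine replicate 1, and control replicate 1 was above nicotine replicate 3. The part of these markers in the values of Kcnh1 and Kcnh8 was not tested. Of the 8 Kcnh genes, all tested, 6 were higher and 2 lower, with a median log2 fold change of 0.21.

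M-current channels, of the Kcnq family, close when certain receptors are stimulated and so raise excitability. Kcnq3, a subunit of the neuronal M current, lay between 0.898 and 1.66 CPM. Kcnq1, a channel of heart and epithelium, lay between 1.16 and 2.497 CPM. Kcnq5 was at 0.636, 1.63 and 0.562 CPM after nicotine and at 0.443, 0.605 and 0.423 CPM in controls, with only nicotine replicate 2 clearly above the rest.

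Silent subunits form no channel alone and alter delayed rectifier channels when they join them. Kcnf1 was at 3.86, 2.21 and 2.26 CPM after nicotine and at 2.22, 4.56 and 9.56 CPM in controls. Control replicate 3 stood far above the rest, and control replicate 1 was at the level of the nicotine libraries. The log2 fold change was -0.98 (SE 0.45, edgeR adjusted p = 0.839) and was -0.31 without control replicate 3. Kcnv2 was at 0.276, 0.0434 and 0.0661 CPM after nicotine and at 0.517, 1.68 and 0 CPM in controls. Control replicates 1 and 2 were the highest and control replicate 3 had no count, so the controls spanned the whole range. The log2 fold change of -2.66 (SE 1.12, edgeR adjusted p = 0.839) was -1.01 without control replicate 2. Kcnv1 lay between 3.64 and 6.54 CPM. Kcng1 lay between 6.28 and 13.6 CPM, with its highest value in nicotine replicate 3, Kcng2 between 2.99 and 5.04 CPM and Kcng4 between 0.923 and 1.86 CPM. Kcns2 and Kcns3 lay between 0.106 and 2.44 CPM.

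The large-conductance calcium-activated channel (BK) opens on depolarisation and calcium together. Its pore is encoded by Kcnma1, and its beta subunits, encoded by Kcnmb genes, tune its calcium sensitivity. Kcnma1 was at 12.5, 17.6 and 16.1 CPM after nicotine and at 11.8, 11.5 and 9.38 CPM in controls. The groups did not overlap and nicotine was higher, with nicotine replicate 1 nearest to the controls. The means were 15.4 ± 2.60 and 10.9 ± 1.31 CPM, a log2 fold change of 0.50 (SE 0.19, edgeR adjusted p = 0.830), and 0.39 to 0.63 with any 1 library left out. Kcnmb1, the beta subunit of smooth muscle, was at 0.530, 0.564 and 0.777 CPM after nicotine and at 0.332, 0.246 and 0.343 CPM in controls. Here too the groups were apart, and the highest value was in nicotine replicate 3, the library with the most smooth muscle and pericyte marker reads. Not every library followed the marker order. Without Tagln, nicotine replicate 2 had the lowest nicotine sum, at 51.6 CPM, and control replicate 2 the highest control sum, at 45.8 CPM. Kcnmb1 was higher in nicotine replicate 2 than in nicotine replicate 1, and was lowest in control replicate 2. Its log2 fold change was 1.03 (SE 0.43, edgeR adjusted p = 0.839), and 0.85 to 1.13 with any 1 library left out. The part of smooth muscle in it was not tested.

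The 2 genes that form the smooth muscle BK channel had unlike promoters. They are shown because both had every nicotine library above the controls, and they are the 250 bases before each start in the RefSeq annotation of GRCr8, a later build than the rn7 build used for the counts. Kcnma1 lay at chr15:351675-351924 and Kcnmb1 at chr10:19061849-19062098, both on the plus strand. Capitals mark GC boxes, GGGCGG on either strand.
Kcnma1: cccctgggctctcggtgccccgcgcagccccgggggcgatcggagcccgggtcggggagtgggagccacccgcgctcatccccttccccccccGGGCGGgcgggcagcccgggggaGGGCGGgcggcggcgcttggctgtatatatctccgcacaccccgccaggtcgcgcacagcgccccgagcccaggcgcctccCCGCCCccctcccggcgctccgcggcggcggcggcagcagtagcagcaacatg
Kcnmb1: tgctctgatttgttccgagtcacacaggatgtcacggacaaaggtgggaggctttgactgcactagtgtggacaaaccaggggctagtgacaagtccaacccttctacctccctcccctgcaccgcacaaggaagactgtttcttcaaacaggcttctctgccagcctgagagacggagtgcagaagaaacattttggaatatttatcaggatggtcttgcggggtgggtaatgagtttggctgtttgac
The Kcnma1 promoter was 79.6% GC with 33 CpG and 3 GC boxes, and the Kcnmb1 promoter was 50.8% GC with 5 CpG and no GC box. Over all 33469 promoters the medians were 51.2% GC and 5 CpG, and 30.5% held a GC box. Of the 69 promoters found for 63 Kcn genes, 33 held one (47.8%). Neither of the promoters held a CArG box, the serum response element of smooth muscle genes, which stood in 1.497% of all promoters. These matches are letters in the sequence and were not tested for binding.

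Kcnmb4, the beta subunit of neurons, was at 18.5, 23.8 and 18.7 CPM after nicotine and 27.5, 18.5 and 19.3 CPM in controls, with overlap. Kcnmb2, which makes the channel inactivate, was at 0.997, 0.564 and 0.777 CPM against 1.26, 0.794 and 1.66 CPM. Its groups overlapped at nicotine replicate 1, and its log2 fold change of -0.67 (SE 0.41, edgeR adjusted p = 0.849) was -0.39 without control replicate 3. Kcnt2, a sodium-activated relative of the BK pore, was at 15.6, 7.41 and 13.9 CPM after nicotine and at 24.9, 22.8 and 11.7 CPM in controls. Control replicates 1 and 2 were above all others, while control replicate 3 lay within the nicotine range. Its log2 fold change was -0.69 (SE 0.32, edgeR adjusted p = 0.839), and -0.43 without nicotine replicate 2. Kcnt1, its closest relative, lay between 1.08 and 2.64 CPM.

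The small- and intermediate-conductance calcium-activated genes, Kcnn, open on calcium alone and follow the calcium oscillations of gonadotrophs. Kcnn2 lay between 13.0 and 17.7 CPM, Kcnn3 between 7.64 and 13.3 CPM, Kcnn1 between 2.72 and 3.49 CPM and Kcnn4 between 1.70 and 2.97 CPM. All 4 had overlapping groups, and the median log2 fold change was 0.022.

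Among the auxiliary genes, Kcnip3 was at 62.2, 75.6 and 89.3 CPM after nicotine and at 75.8, 72.0 and 69.9 CPM in controls. The nicotine libraries lay on both sides of the controls, and the log2 fold change was 0.060 (SE 0.17, edgeR adjusted p = 0.960). Kcnip1, a relative with far fewer reads, was at 0.955, 1.18 and 3.50 CPM against 2.95, 2.40 and 4.73 CPM. Replicate 3 was the highest library of both groups. Its log2 fold change of -0.84 (SE 0.48, edgeR adjusted p = 0.848) was -1.64 without nicotine replicate 3 and -0.51 without control replicate 3. Kcnip4 lay between 5.31 and 13.3 CPM, with its lowest value in nicotine replicate 2, and Kcnip2 between 7.11 and 9.66 CPM.

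Kcne genes encode small single-span subunits that modify voltage-gated pores. Kcne4, which inhibits several of them, was at 2.02, 1.30 and 2.26 CPM after nicotine and at 3.32, 3.48 and 2.06 CPM in controls, with a log2 fold change of -0.67 (SE 0.33, edgeR adjusted p = 0.839). Control replicates 1 and 2 were highest, and control replicate 3 was within the nicotine range. Kcne3, at a lower level, had its highest values in control replicates 1 and 2 and its lowest in control replicate 3, with 0.233, 0.174 and 0.149 CPM against 0.554, 0.473 and 0.106 CPM and a log2 fold change of -1.02 (SE 0.61, edgeR adjusted p = 0.848). Kcne2 lay between 1.07 and 2.36 CPM and Kcne5 between 0.132 and 0.517 CPM. Kcnab2, a beta subunit of Shaker-related channels with the fold of a reductase, lay between 15.2 and 24.2 CPM Kcnab1 between 2.31 and 3.71 CPM and Kcnab3 between 0.303 and 0.892 CPM. Kcnrg, which hinders the assembly of voltage-gated channels, lay between 0.886 and 1.35 CPM.

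Of the 11 genes of accessory subunits with other names, 9 were tested and none was called by edgeR or DESeq2. The fitted level was higher after nicotine in 6 and lower in 3, with a median log2 fold change of 0.039. At an unadjusted p under 0.05 edgeR gave Abcc9 and Lgi1 with higher and Dpp10 with lower levels (33.3%, against 5.85% of all genes). Abcc9 and Lgi1 were also the 2 whose groups did not overlap (22.2%, against 11.3% of all genes). Lgi1, a secreted protein that acts on Shaker-related channels, was at 11.5, 21.2 and 14.2 CPM after nicotine and at 10.6, 11.0 and 4.596 CPM in controls. The groups did not overlap, although nicotine replicate 1 was close to the controls, and the log2 fold change of 0.84 (edgeR adjusted p = 0.831) was 0.54 without control replicate 3. Dpp10, a partner of A-type channels, was at 12.5, 13.2 and 17.3 CPM against 25.6, 16.4 and 32.04 CPM. Only control replicate 2 fell within the nicotine range. The log2 fold change was -0.78 (edgeR adjusted p = 0.807), beside Kcnd genes, which encode A-type pores, with a median of 0.0012.

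All 15 receptors and G proteins that open GIRK channels were tested and none was called, with 9 higher, 6 lower and a median log2 fold change of 0.089. Sstr3, a somatostatin receptor, was the only one at an unadjusted p under 0.05 in edgeR (6.67%, against 5.85% of all genes). Its levels were 9.33, 30.4 and 8.72 CPM after nicotine and 8.35, 5.26 and 8.93 CPM in controls. Its difference rested on nicotine replicate 2, as the log2 fold change of 1.11 (edgeR adjusted p = 0.832) was 0.26 without that library. The G protein genes Gnai2 and Gnb2 had every nicotine library above the controls and Gnai1 had every one below, 3 of the 15 genes (20%) where 11.3% of all genes had no overlap. Among the 5 pacing cation channel genes, which oppose the potassium current at rest, 3 were higher and 2 lower. Nalcn, the sodium leak channel, was at 177, 179 and 152 CPM after nicotine and at 216, 195 and 185 CPM in controls. It was the only 1 of the 5 whose groups did not overlap (20%, against 11.3% of all genes).

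Variation between rats of 1 group was smaller at the median among genes with more reads. The median within-group SD of log2 CPM was 0.37 for the 79 Kcn genes and 0.27 for all genes tested. At a mean of at least 10 CPM it was 0.23 for 25 Kcn genes and 0.22 for 9727 genes. The largest SDs were those of Kcnv2 at 2.13, Kcna6 at 0.94, Kcnj15 at 0.85 and Kcne3 at 0.82, all genes with few reads. Kcnf1, with a mean of 4.11 CPM, came next at 0.80. Kcnj16 and Kcnmb1, both under 1 CPM, had SDs of only 0.15 and 0.26. Nicotine replicate 2 held the highest level of 24 Kcn genes (30.4%) and the lowest of 14. Nicotine replicate 1 was highest in 5 (6.33%), against 13.4% of all genes. Control replicate 3 was lowest in 23 (29.1%), against 14.7% of all genes, and was highest in 14.

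**Figure D4:**
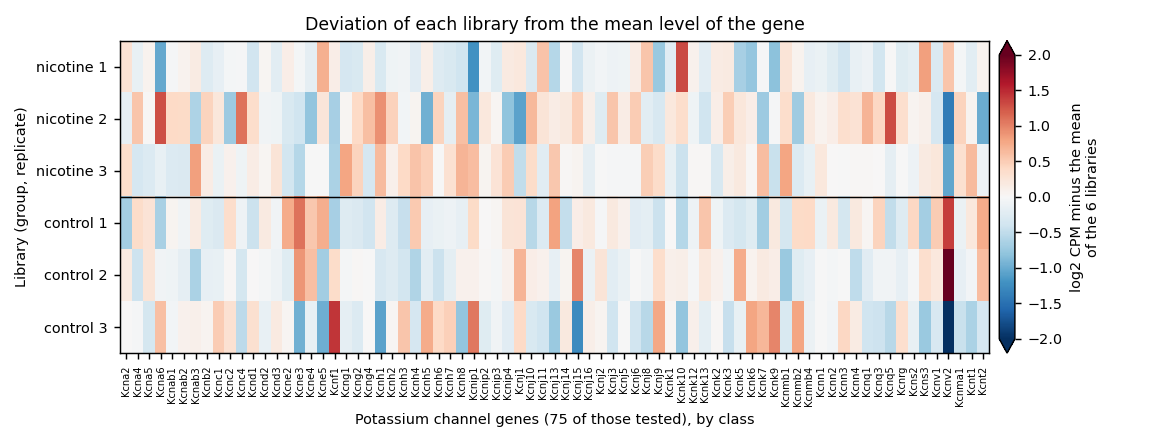
Difference of log2 CPM in each library (rows) from the mean of the 6 libraries for 75 of the 79 potassium channel genes tested (columns, ordered by class), with red for a higher and blue for a lower level. Control replicate 3 has the lowest level of 23 of the 79 genes and nicotine replicate 2 the highest level of 24, and no row is of 1 colour throughout.

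The spans of 45 of the 94 Kcn genes overlap another gene in the GRCr8 annotation, 13 of them a protein-coding one. Kcnmb1 lies within such an overlap with Kcnip1, and Kcnv2 with Pum3. The strand setting of the counting is not given in the sources used here, so reads of overlapping genes may have been shared or dropped.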

How the data were processed

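RNA-seq counts of 6 rat pituitaries, 3 from each group, were analysed. The deposited values are raw counts per gene symbol, which the authors made from paired-end reads of strand-specific libraries by mapping to rn7 with HISAT2 2.1.0 and counting with featureCounts on the UCSC ncbiRefSeq annotation. Base calls came from bcl2fastq 2.20.0.422, per the submitters' processing notes. The strand setting, the handling of multiply mapped reads and whether reads or pairs were counted are not given in the sources used here.

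The software was edgeR 4.0.16, DESeq2 1.42.0 and limma 3.58.1 under R 4.3.3. Genes were kept by filterByExpr, which left 17292 of 24546 with a count. Library sizes were scaled by TMM factors of 0.957 to 1.07. The nicotine contrast was fitted by edgeR (glmQLFit and glmQLFTest, no covariates) with Benjamini-Hochberg adjustment over all genes tested. Calls needed an adjusted p under 0.1 together with more than a 1.5-fold difference. SDs are over 3 rats. Log2 CPM used a prior count of 2. Depth was 28318383 to 85977002 counts, and 0 counts were read as up to 3.

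The members and lists were chosen with earlier results of these data known. Named genes were the 2 with the most reads in each class, the 10 with the smallest p in each direction, any called gene and a list of well-known pituitary channels. Other genes are given by range or were named after their values were seen. Some Kcn genes are counted but not reported here singly. Class medians and sums are descriptions without a test. Promoters were taken from RefSeq for GRCr8, and 63 of the 94 genes were matched by symbol. The fit was tested on simulated counts. Alternatives were DESeq2, other scalings and filters, limma voom, thinning, other thresholds, leaving out each library and the replicate number as a block. Robust estimation was added after seeing the data.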

Additional observations from a re-analysis of the deposited data

How the results depend on the processing

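No Kcn gene was called under any alternative run. The count over all genes, 0 in the edgeR test, was 58 with DESeq2, 30 without a filter, 2 with the replicate number as a block, 1 with library sizes alone, 1 with at least 10 counts in every library, 1 with limma voom and 1 with robust estimation, an alternative chosen after seeing the data. It was 0 to 4 with 1 library left out, with 4 without control replicate 2 and 1 without nicotine replicate 2. Kcn genes at an unadjusted p under 0.05 numbered 14 of 92 without a filter (15.2%, against 6.12% of all genes) and 4 to 14 with 1 library left out, where all genes gave 3.67% to 8.58%, against 9 of 79. Kcn genes without overlap of the groups numbered 12 on thinned counts (16.0%, against 11.1% of all genes), and 12 to 20 with 1 library left out, where 3 against 2 libraries gave 17.1% to 25.6% over all genes. The median log2 fold change of the Kcn genes, 0.056, was 0.0042 to 0.16 with 1 library left out. Of the fold changes recomputed for 28 named genes, 405 kept their direction and their side of the threshold and 9 changed sign, all of genes near 0. Kcnk2 was at 0.054 with library sizes alone, 0.011 without a filter and 0.022 on thinned counts, and between -0.088 and 0.14 with 1 library left out. Kcnj5 was between -0.049 and 0.086 and Kcnip3 between -0.075 and 0.18 with 1 library left out. Causes were not tested. Where a library was left out, the smaller number of samples and the loss of that library cannot be told apart. The deviations of rats with the same number from their group means had correlations of 0.026, -0.20 and -0.078. With 3 rats in each group these cannot settle whether the numbers pair the rats. The replicate block gave 7 Kcn genes at an unadjusted p under 0.05 (8.86%, against 5.03% of all genes). Low counts limit Kcnv2, Kcnj1, Kcne3 and Kcnmb1, all under 1 CPM on average.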

Other observations

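Sums of the other marker lists were as follows. The 5 posterior lobe and pituicyte markers summed to 67.1, 138 and 86.7 CPM in the nicotine libraries and to 91.0, 59.7 and 51.4 CPM in the controls, most of it Scn7a. Without Scn7a the other 4 summed to 17.9, 38.004 and 25.2 CPM against 17.9, 10.2 and 2.06 CPM, lowest in control replicate 3. All 5 had a higher fitted level after nicotine, 3 of them at an unadjusted p under 0.05 in edgeR (60%, against 5.85% of all genes) and none called. The 5 endothelial markers stood at 203, 150 and 251 CPM against 128, 163 and 124 CPM. Neuron and axon markers reached 341, 353 and 227 CPM against 219, 244 and 240 CPM, with the most reads in Map2 and Nefl. Of these 6 markers, 5 had a higher fitted level after nicotine and 1, Gap43, a lower one, and none was called. Gap43 was at 12.4, 12.3 and 16.0 CPM after nicotine and at 17.6, 13.1 and 46.5 CPM in controls. Blood markers were at 4114, 2528 and 7844 CPM against 6709, 9204 and 14214 CPM, most of it Hbb and Hba-a1. All 6 had a lower fitted level after nicotine and none was called. Each was at an unadjusted p under 0.05 in edgeR (100%, against 5.85% of all genes). S100a8 and S100a9 had their lowest level of the 6 libraries in control replicate 2, at 1.02 and 3.92 CPM. Their lower fitted levels rested on control replicates 1 and 3, at 35.3 and 26.5 CPM for S100a8 and 63.3 and 44.9 CPM for S100a9. Markers of meninges were at 292, 103 and 390 CPM against 386, 368 and 406 CPM, lowest in nicotine replicate 2. Folliculostellate and stem cell markers were at 138, 129 and 192 CPM against 133, 145 and 127 CPM. Oligodendrocyte and Schwann cell markers were at 27.0, 33.9 and 30.7 CPM against 24.4, 88.3 and 33.6 CPM, highest in control replicate 2. The part of any of these cells in the channel values was not tested.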
